A study of Mus musculus with 12 samples.

Results

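The 9 genes described here are Cdh5, Pecam1, Kdr, Flt1, Tek, Tie1, Ramp2, Thbd and Eng, which are best known from the endothelial cells that line blood vessels. They were taken as every probe set of the array whose single gene symbol in the platform annotation is 1 of these names, which gave 12 of the 12422 probe sets of the array. Thbd, Tie1 and Flt1 had more than 1 probe set each, and the remaining genes had 1. All 12 probe sets had a mean signal above the lowest 30% of the array and were tested, 0 fell below it, and 8695 probe sets were tested in all. Both Tie1 probe sets stayed below the level of that filter, a signal of 173, on every stromo-vascular array, and so passed it only through their adipocyte signals. Cdh5 stayed below it on the intraabdominal stromo-vascular arrays (39.5 to 102) but not on the subcutaneous ones (316 to 467). Its mean log2 signal over all stromo-vascular arrays lay just below the filter level, so Cdh5 too passed through its adipocyte signals. A further probe set that the annotation gives to both Ramp2 and Vps25 does not belong to the set by this rule.

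Fat of male mice of the inbred strain C57BL/6, aged 42 to 49 days, was measured on 12 Affymetrix arrays in 4 groups of 3. The groups were isolated adipocytes of subcutaneous flank fat, isolated adipocytes of intraabdominal (epididymal) fat, stromo-vascular cells of subcutaneous fat and stromo-vascular cells of intraabdominal fat. All mice were untreated and of 1 genotype as far as the labels say, and tissue of 10 mice was pooled by depot before collagenase digestion. The adipocytes were the cells that floated after passage through a 150 µm mesh, and they were washed and extracted at once. The stromo-vascular cells, a mixture of fibroblasts, preadipocytes, immune cells and cells of the vessel wall, were pelleted, freed of red cells by lysis, passed through a 25 µm mesh, plated, and washed and extracted 16 h later. Fraction and culture therefore go together and cannot be told apart. Whether the 3 arrays of a group come from separate pools is not stated, so the p-values below measure the spread between these arrays, which may be technical. In such bulk samples, fewer cells of a type and less RNA per cell cannot be told apart.

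Endothelial cells are held together by VE-cadherin, encoded by Cdh5, and by the adhesion molecule encoded by Pecam1. They respond to vascular endothelial growth factors through the receptors encoded by Kdr and Flt1, and to angiopoietins through the receptor encoded by Tek, of which the Tie1 protein is a partner. Ramp2 encodes the protein that turns the calcitonin receptor-like receptor into a receptor for adrenomedullin, Thbd encodes thrombomodulin, which binds thrombin and turns it toward activating protein C, and Eng encodes endoglin, a co-receptor for ligands of the TGF beta family. Fat is rich in capillaries that run along the fat cells, and collagenase frees the vessel cells into the stromo-vascular pellet.

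Cdh5, Tie1, Flt1, Kdr, Ramp2, Pecam1 and Tek were higher in the adipocyte fraction than in the plated stromo-vascular cells of both depots. Thbd went the other way on 1 probe set and was not called on the other, and Eng was called in neither depot. For Tie1 the filter on low signals had fixed that direction, since its probe sets passed only through their adipocyte signals.

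Promoter windows of 5 of the 9 genes, those of Kdr, Tek, Tie1, Flt1 and Eng, were found in the RefSeq promoter table of GRCm38.p6. The windows of Tie1, which differed strongly between the fractions, and of Eng, which was not called in either depot, are shown because they lie wholly outside any RefSeq gene record. Each is the 150 bases just before the gene's start, and capitals mark GGAA or TTCC, the core that ETS factors of endothelial cells recognise, read on both strands. The Tie1 window is chr4:118489850-118489999 on the minus strand and the Eng window is chr2:32646445-32646594 on the plus strand, both in GRCm38.p6.
Tie1: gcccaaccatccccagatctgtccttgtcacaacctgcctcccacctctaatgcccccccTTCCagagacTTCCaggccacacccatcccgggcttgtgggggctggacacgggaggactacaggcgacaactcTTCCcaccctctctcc
Eng: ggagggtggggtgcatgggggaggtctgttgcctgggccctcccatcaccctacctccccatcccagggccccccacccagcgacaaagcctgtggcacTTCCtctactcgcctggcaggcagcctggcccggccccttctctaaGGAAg
The Tie1 window held 3 copies of the core and the Eng window 2. Of the 27025 genes with a window in the table, 80.9% held at least 1 copy in the same 150 bases, with a median of 2, so neither count sets these genes apart. Over the 250 bases before the start, Tie1 held 7 copies and Eng 3, against a median of 3 over all genes. A match of these letters is a description of the sequence and not of a factor at work there.

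Signals are given as deposited, on a linear scale, and each set of 3 values lists the 3 arrays of a group. Log2 differences are on the scale of log2(signal + 40.1), which understates the change of dim genes. Each comes from a limma model over all 12 arrays, with its standard error (SE), and "called" means a Benjamini-Hochberg adjusted p, taken over the 8695 probe sets, of under 0.05.

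**Figure D1:**
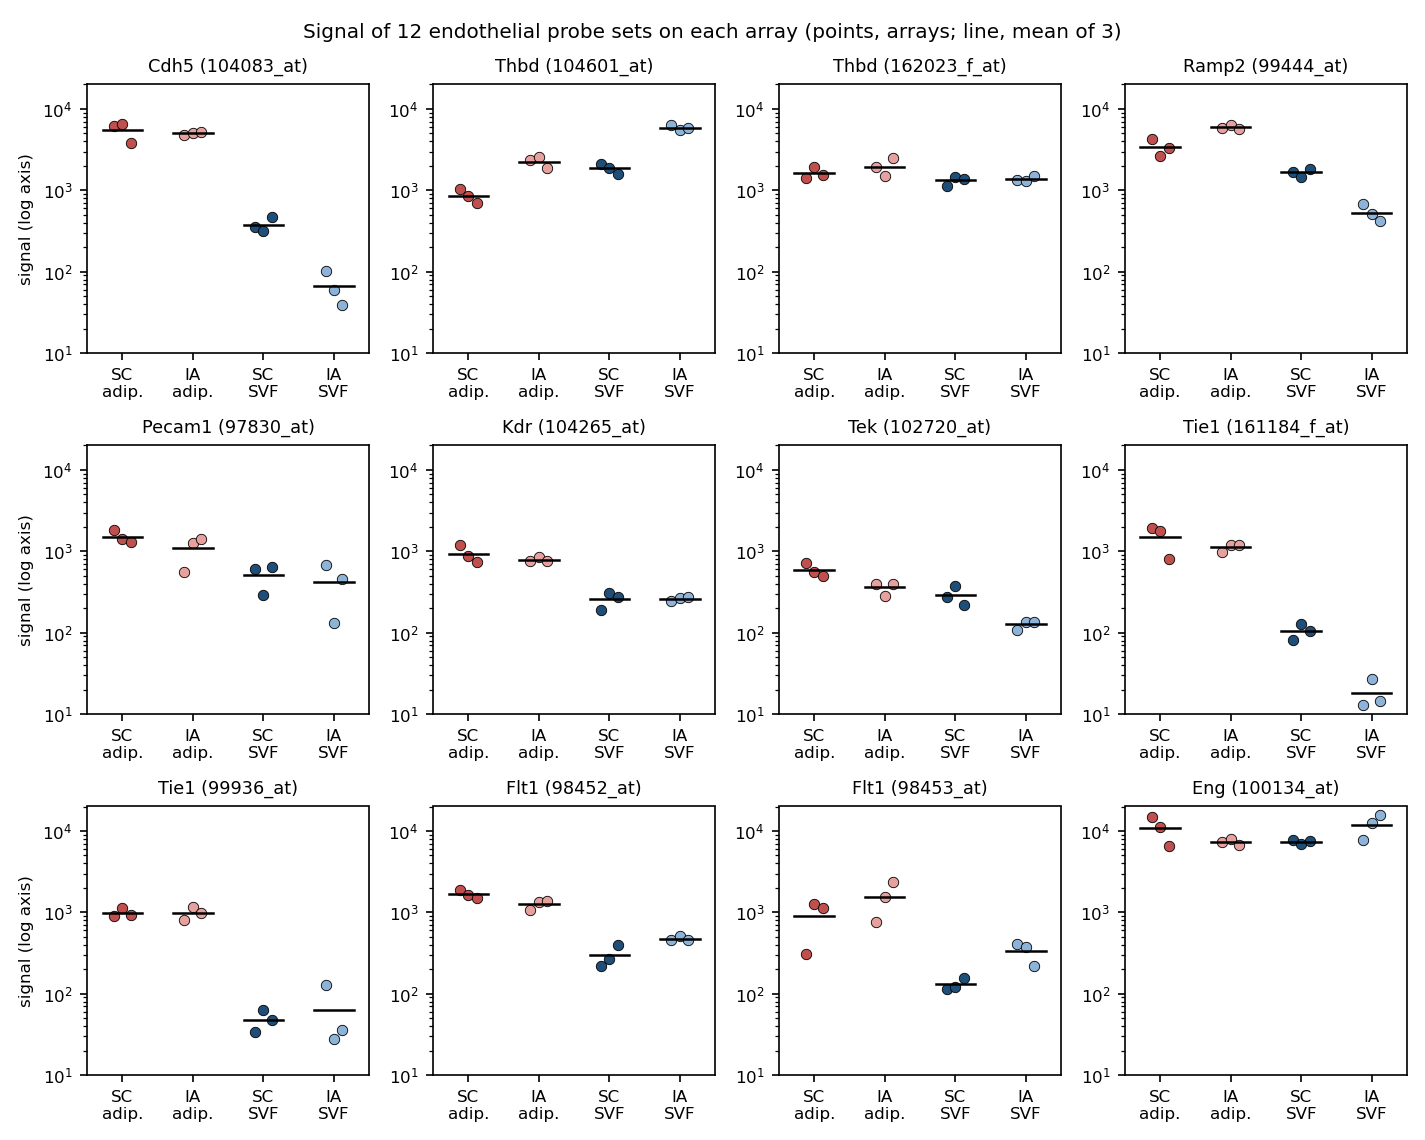
Signal on each array, on a log axis, of the 12 probe sets of the 9 endothelial genes in adipocytes (adip.) and stromo-vascular cells (SVF) of subcutaneous (SC) and intraabdominal (IA) fat. Points are arrays and lines are means of 3; Cdh5 sits between 3781 and 6563 in adipocytes and between 39.5 and 467 in stromo-vascular cells, while adipocytes and stromo-vascular cells overlap for Eng in both depots.

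In the comparison of adipocytes with stromo-vascular cells, 9 of the 12 probe sets were higher in adipocytes of subcutaneous fat, 1 was lower and 2 were not called. In intraabdominal fat the counts were also 9 higher, 1 lower and 2 not called, and the not called probe sets were the same Thbd and Eng probe sets in both depots. Without the Tie1 probe sets, whose direction the filter fixed, 7 of 10 were higher, 1 lower and 2 not called in each depot. The 2 fractions differ widely on the whole array: in subcutaneous fat 52.8% of all tested probe sets were called, 23.5% as higher and 29.4% as lower in adipocytes, and in intraabdominal fat 51.3%, 22.4% as higher and 29.0% as lower. All 3 arrays of adipocytes were above all 3 of stromo-vascular cells for 9 of the 12 in each depot, and below for 1, while over the whole array the shares were 27.6% above and 32.3% below in subcutaneous fat and 26.2% above and 33.8% below in intraabdominal fat. The median log2 difference over the 9 genes, each by its brightest probe set, was 1.56 in subcutaneous and 1.42 in intraabdominal fat, beside -0.04 and -0.11 over all tested probe sets, and without Tie1 it was 1.28 and 1.37. The genes were chosen with earlier results of these data known, so these counts and medians describe a chosen set and are not a test of it.

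**Figure D2:**
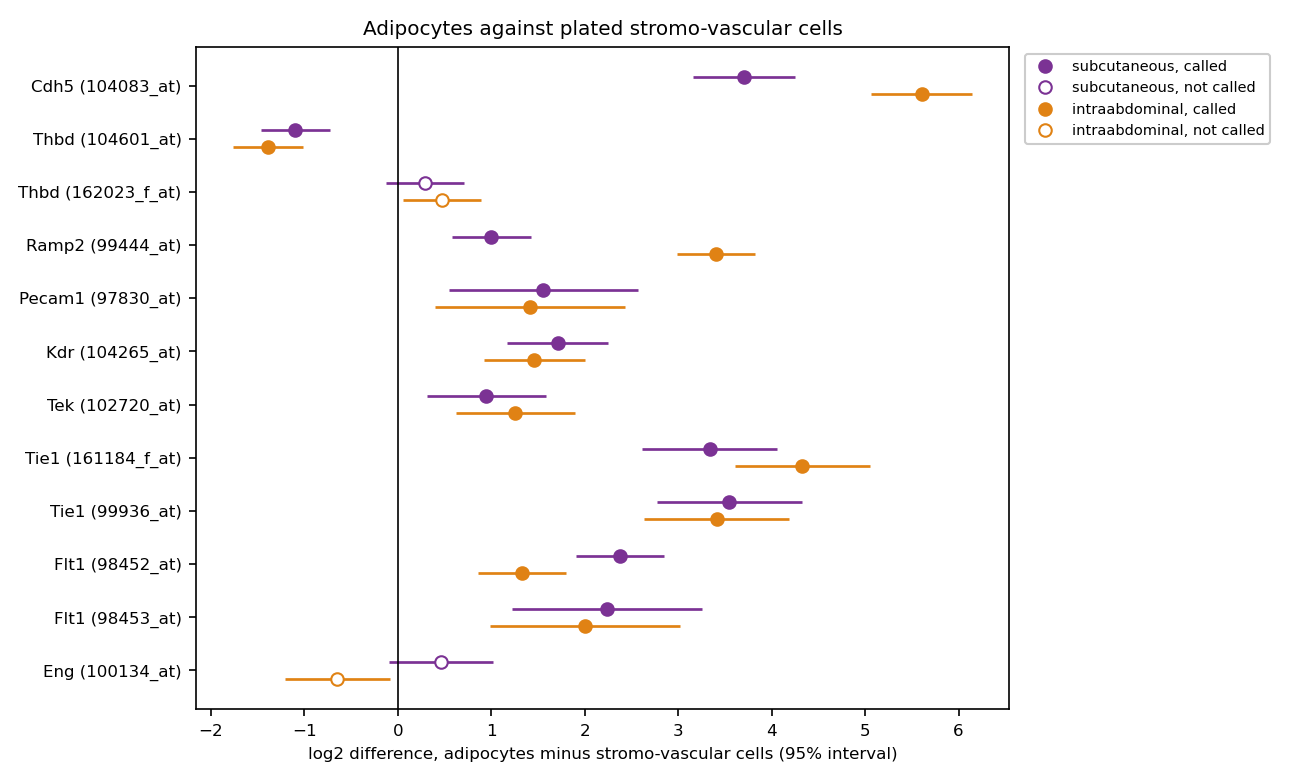
Log2 difference of adipocytes minus plated stromo-vascular cells for the 12 probe sets in subcutaneous and intraabdominal fat, with 95% intervals from the fit; filled points were called. Cdh5 in intraabdominal fat lies farthest to the right at 5.61, and Thbd on 104601_at is left of 0 in both depots.

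Among the junction genes, Cdh5 had signals of 6207, 6563 and 3781 in subcutaneous adipocytes and 4829.6, 5069.6 and 5182 in intraabdominal adipocytes, against 355, 316 and 467 in subcutaneous and 102, 59.1 and 39.5 in intraabdominal stromo-vascular cells. Every adipocyte array was above every stromo-vascular array, and every subcutaneous stromo-vascular array was above every intraabdominal one, whereas the 2 adipocyte groups overlapped. The log2 difference of adipocytes minus stromo-vascular cells was 3.70 in subcutaneous fat (SE 0.25, 13.0-fold, limma adjusted p = 1.43e-08) and 5.61 in intraabdominal fat (SE 0.25, 48.8-fold, limma adjusted p = 1.49e-10). The intraabdominal value depends on the constant added before the logarithm, at 4.77 with the 25th percentile of all values and 6.32 with 1.

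Pecam1, the other junction gene, had signals of 1838, 1429 and 1287 in subcutaneous adipocytes against 608, 287 and 637 in subcutaneous stromo-vascular cells. In intraabdominal fat its signals were 559.6, 1268 and 1433 in adipocytes against 678, 130.4 and 455 in stromo-vascular cells. The subcutaneous groups did not overlap, while the lowest intraabdominal adipocyte array lay below the highest intraabdominal stromo-vascular array. The log2 difference was 1.56 in subcutaneous (SE 0.47, limma adjusted p = 0.0125) and 1.42 in intraabdominal fat (SE 0.47, limma adjusted p = 0.0212). These calls rest on single arrays: the subcutaneous one was lost without stromo-vascular array 2 (log2 difference 1.22, adjusted p = 0.0645). The intraabdominal one was lost without adipocyte array 2 (adjusted p = 0.0739) or 3 (adjusted p = 0.0832), and without stromo-vascular array 2, where the log2 difference was 0.82 (adjusted p = 0.115).

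Of the growth factor receptors, Kdr, the main signalling receptor for VEGF-A, had signals of 1210.1, 871 and 736 in subcutaneous and 754, 841 and 766 in intraabdominal adipocytes. It had 191, 304 and 278 in subcutaneous and 242, 268 and 272 in intraabdominal stromo-vascular cells. All adipocyte arrays were above all stromo-vascular arrays, and the depots overlapped within each fraction. The log2 difference of adipocytes minus stromo-vascular cells was 1.71 in subcutaneous (SE 0.25, 3.27-fold, limma adjusted p = 4.48e-05) and 1.46 in intraabdominal fat (SE 0.25, 2.75-fold, limma adjusted p = 0.000192).

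Flt1 encodes a receptor that binds VEGF-A tightly and also VEGF-B and placental growth factor, and was read by a pair of probe sets. On 98452_at its signals were 1879.9, 1629 and 1495 in subcutaneous and 1076, 1329 and 1367 in intraabdominal adipocytes, against 221, 268 and 396 in subcutaneous and 453, 511 and 462 in intraabdominal stromo-vascular cells. The 4 groups did not overlap, in the order subcutaneous adipocytes, intraabdominal adipocytes, intraabdominal stromo-vascular cells and subcutaneous stromo-vascular cells. The log2 difference of adipocytes minus stromo-vascular cells was 2.38 in subcutaneous (SE 0.22, 5.19-fold, limma adjusted p = 3.98e-07) and 1.33 in intraabdominal fat (SE 0.22, 2.51-fold, limma adjusted p = 0.000135).

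On 98453_at, Flt1 had signals of 305, 1249.8 and 1119.6 in subcutaneous and 769.6, 1542 and 2356 in intraabdominal adipocytes, against 114, 122 and 156 in subcutaneous and 406, 374 and 221 in intraabdominal stromo-vascular cells. Within each depot the adipocyte arrays were above the stromo-vascular arrays, but subcutaneous adipocyte array 1 stood far below the other two of its group. The log2 difference was 2.24 in subcutaneous (SE 0.47, limma adjusted p = 0.00108) and 2.0 in intraabdominal fat (SE 0.47, limma adjusted p = 0.00257), and without that array the subcutaneous value was 2.85.

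Tek, the angiopoietin receptor, had signals of 722, 551 and 496 in subcutaneous and 401, 283 and 401 in intraabdominal adipocytes, against 272, 371 and 221 in subcutaneous and 109, 135 and 137 in intraabdominal stromo-vascular cells. Adipocytes were above stromo-vascular cells on every array within a depot, whereas intraabdominal adipocytes overlapped subcutaneous stromo-vascular cells. The log2 difference was 0.95 in subcutaneous (SE 0.30, 1.93-fold, limma adjusted p = 0.0146) and 1.26 in intraabdominal fat (SE 0.30, 2.39-fold, limma adjusted p = 0.00244). The subcutaneous call was lost without adipocyte array 1 (adjusted p = 0.0533) or stromo-vascular array 3 (adjusted p = 0.0623).

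Tie1, whose upstream window is printed above, had signals on 161184_f_at of 1938, 1754 and 816 in subcutaneous and 975, 1203 and 1203 in intraabdominal adipocytes, against 81.3, 127 and 105 in subcutaneous and 12.7, 27.1 and 14.4 in intraabdominal stromo-vascular cells. The letter f in such a name marks a probe set that, by the maker's convention, can match a family of similar sequences. On 99936_at its signals were 892, 1125 and 926 in subcutaneous and 801, 1166 and 987 in intraabdominal adipocytes, against 33.9, 62.4 and 47.0 in subcutaneous and 126, 28.1 and 36.2 in intraabdominal stromo-vascular cells. On both probe sets all adipocyte arrays were above all stromo-vascular arrays.

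The log2 difference of Tie1 was 3.34 in subcutaneous (SE 0.34, limma adjusted p = 1.04e-06) and 4.33 in intraabdominal fat (SE 0.34, limma adjusted p = 6.24e-08) on 161184_f_at. On 99936_at it was 3.54 in subcutaneous (SE 0.36, limma adjusted p = 1.11e-06) and 3.41 in intraabdominal fat (SE 0.36, limma adjusted p = 1.62e-06). Since the stromo-vascular signals were dim, the sizes move with the added constant: the intraabdominal difference of 161184_f_at was 3.13 with the 25th percentile of all values and 5.95 with 1, and that of 99936_at was 2.59 and 4.24. The subcutaneous difference of 99936_at was 2.68 and 4.37 with these constants.

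Ramp2 had signals of 4284, 2623 and 3349 in subcutaneous and 5880.2, 6274 and 5698 in intraabdominal adipocytes, against 1703, 1451 and 1829.6 in subcutaneous and 674, 507 and 421 in intraabdominal stromo-vascular cells. None of the 4 groups overlapped, and the order of the depots was opposite in the 2 fractions. The log2 difference of adipocytes minus stromo-vascular cells was 1.00 in subcutaneous (SE 0.20, limma adjusted p = 0.00055) and 3.41 in intraabdominal fat (SE 0.20, 10.6-fold, limma adjusted p = 2.04e-09).

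The probe set shared by Ramp2 and Vps25, an endosomal sorting gene, read 2175, 1783 and 2102 in subcutaneous and 2039, 2277 and 2088 in intraabdominal adipocytes, against 1932, 1589.8 and 2303 in subcutaneous and 1572, 1656 and 1828 in intraabdominal stromo-vascular cells. It did not show the order of the 4 groups seen on the Ramp2 probe set: in subcutaneous fat the 2 fractions overlapped.

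Thbd was read by a pair of probe sets that did not show the same thing. On 104601_at, signals were 1034, 850.1 and 700.0 in subcutaneous and 2336, 2538 and 1863 in intraabdominal adipocytes, against 2125, 1901 and 1609.9 in subcutaneous and 6399, 5552 and 5806 in intraabdominal stromo-vascular cells. Within each depot every adipocyte array was below every stromo-vascular array, with log2 differences of -1.10 in subcutaneous (SE 0.17, limma adjusted p = 8.6e-05) and -1.39 in intraabdominal fat (SE 0.17, limma adjusted p = 8.4e-06).

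On 162023_f_at, Thbd had 1437, 1939 and 1556 in subcutaneous and 1924, 1494 and 2464 in intraabdominal adipocytes, against 1128, 1478 and 1392 in subcutaneous and 1332, 1302 and 1482 in intraabdominal stromo-vascular cells. The subcutaneous groups overlapped and the intraabdominal groups did not. The log2 difference was 0.29 in subcutaneous (95% interval -0.12 to 0.71, limma adjusted p = 0.223) and 0.48 in intraabdominal fat (95% interval 0.06 to 0.89, limma adjusted p = 0.0533). The intraabdominal difference became a call, as higher in adipocytes, with each array centred on its median (0.63, adjusted p = 0.0109), with quantile normalization (0.59, adjusted p = 0.0172) and in 4 other alternatives, among them without intraabdominal adipocyte array 2 (0.65, adjusted p = 0.0147). The direction of Thbd in adipocytes therefore depends on the probe set.

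Eng had signals of 14698, 11064 and 6534 in subcutaneous and 7319, 7862 and 6815 in intraabdominal adipocytes, against 7709.9, 6849 and 7634 in subcutaneous and 7805, 12373 and 15649 in intraabdominal stromo-vascular cells. The groups overlapped in both depots, and arrays of the same group differed widely. The log2 difference of adipocytes minus stromo-vascular cells was 0.46 in subcutaneous (95% interval -0.09 to 1.02, limma adjusted p = 0.15) and -0.65 in intraabdominal fat (95% interval -1.20 to -0.09, limma adjusted p = 0.0506). Single arrays decided these: without subcutaneous adipocyte array 3 the subcutaneous value was 0.78 (adjusted p = 0.0111), and without intraabdominal stromo-vascular array 1 the intraabdominal value was -0.92 (adjusted p = 0.00755). The intraabdominal difference was a call, as lower in adipocytes, in 8 of 23 alternatives.

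The 12 probe sets also varied among the arrays of 1 group. Array 1 of subcutaneous adipocytes was the highest of its group for 8 of the 12 and array 3 the lowest for 8 of the 12. Hba-a1, an alpha globin gene of red cells, ran in the same order on these arrays, at 44182, 24637 and 16985 in subcutaneous adipocytes. So did the median signal of all probe sets without controls, over a narrower range, at 558, 535 and 476. The cause of this order was not tested. The deposited values carry no detection calls here, so how far the dimmest stromo-vascular signals stand above background is not known.

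RNA quality moved with the fraction and, in adipocytes, with the depot. The ratio of signal at the 3' to that at the 5' end of the actin control, which is higher where RNA or its copies are shorter, was 2.35 to 3.10 in subcutaneous and 1.71 to 2.24 in intraabdominal adipocytes, against 1.2 to 1.24 in subcutaneous and 1.11 to 1.21 in intraabdominal stromo-vascular cells. With this ratio as a covariate, 0 of the 12 probe sets were called in either direction in subcutaneous fat, while 4 were called higher and 1 lower in intraabdominal fat. Of the 10 subcutaneous calls that were lost, 9 kept their direction with SEs of 0.58 to 1.68, beside 0.17 to 0.47 without the covariate, and Pecam1 turned to -1.57. The values of Ramp2 (0.90), Tek (0.96) and Flt1 on 98453_at (1.84) stayed near those without the covariate, and Thbd on 104601_at was farther from 0 at -1.66. Those of Cdh5 (2.34), Flt1 on 98452_at (1.58), Kdr (0.87) and Tie1 on 99936_at (2.47) and 161184_f_at (1.31) were smaller. The intraabdominal 4 were Cdh5 (log2 difference 4.72), both Tie1 probe sets (3.01 and 2.71) and Ramp2. Calls over the whole array fell with it too, to 1058 in subcutaneous and 2173 in intraabdominal fat, beside 4594 and 4462 without it. The ratio did not overlap between the fractions, so the 2 cannot be told apart. It also did not overlap between the depots in adipocytes, so depot and RNA quality cannot be told apart there either.

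The depots were then compared within each fraction, where Ramp2, and Thbd on 1 of its 2 probe sets, differed in adipocytes. In stromo-vascular cells Cdh5, Ramp2, Tek, Tie1 and Thbd differed, each on 1 probe set. The other probe sets of Tie1 and Thbd were not called there. In adipocytes, subcutaneous minus intraabdominal, 0 of the 12 probe sets were called higher, 2 lower and 10 not, beside 8.13% of all probe sets called, 3.97% as higher and 4.16% as lower. The groups did not overlap for 2 probe sets with subcutaneous adipocytes higher and 2 with them lower, beside 13.6% and 10.7% of all probe sets. The 2 lower calls were Thbd on 104601_at, with a log2 difference of -1.35 (SE 0.17, limma adjusted p = 0.00035), and Ramp2, with -0.82 (SE 0.20, limma adjusted p = 0.0195). For both, every subcutaneous adipocyte array was below every intraabdominal one. Leaving out 1 array ended the Ramp2 call where it was subcutaneous array 2 (-0.64, adjusted p = 0.071) or intraabdominal array 1 (-0.83, adjusted p = 0.0635) or 2 (-0.78, adjusted p = 0.0776). The actin ratio as a covariate also ended it, at a value of -0.86 with an SE of 0.33 (adjusted p = 0.27). With that covariate, depot calls in adipocytes over the whole array were 97, beside 707 without it.

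Cdh5, Kdr and Tie1, all called between the fractions, were not called between the depots in adipocytes. Cdh5 had a depot difference of 0.09 there (95% interval -0.45 to 0.63), Kdr of 0.22 (95% interval -0.32 to 0.76), and the Tie1 probe sets of 0.32 (161184_f_at, 95% interval -0.41 to 1.04) and 0.0031 (99936_at, 95% interval -0.77 to 0.78). These intervals still allow differences of up to about 2-fold. Tek and Flt1 on 98452_at were higher on every subcutaneous than on every intraabdominal adipocyte array, at 0.65 (limma adjusted p = 0.194) and 0.40 (limma adjusted p = 0.281), and were not called. On 98453_at, Flt1 went the other way, at -0.86 (95% interval -1.87 to 0.16, limma adjusted p = 0.281), and was not called either. Eng read 0.48 (95% interval -0.08 to 1.03) and was called without subcutaneous array 3 (0.80, adjusted p = 0.0446). With each array centred on its median, the median depot difference over all probe sets in adipocytes was -0.15 in place of 0.07, and 18.0% of called probe sets were higher in place of 48.8%. Under that scaling the values of Cdh5, Kdr and 99936_at of Tie1 fell to the other side of 0, at -0.13, -0.0026 and -0.21.

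In stromo-vascular cells, subcutaneous minus intraabdominal, 4 of the 12 probe sets were called higher, 1 lower and 7 not, beside 12.9% of all probe sets called, 6.49% as higher and 6.45% as lower. The groups did not overlap for 4 probe sets with subcutaneous cells higher and 4 with them lower, beside 20.5% and 16.8% of all probe sets. Cdh5 was higher in subcutaneous cells, with a log2 difference of 2.0 (SE 0.25, 3.99-fold, limma adjusted p = 7.52e-05), and so was Ramp2, with 1.58 (SE 0.20, limma adjusted p = 6.21e-05). With the 25th percentile of all values added before the logarithm, the Cdh5 difference was 1.40. The remaining higher calls were Tek at 0.95 (limma adjusted p = 0.0478) and 161184_f_at of Tie1 at 1.31 (limma adjusted p = 0.0185), while 99936_at of Tie1 read -0.13 (95% interval -0.91 to 0.65) and so did not show the Tie1 difference.

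The Tek call, close to the threshold, was lost in 16 of 22 alternatives, with adjusted p up to 0.202, among them without any 1 of the 6 stromo-vascular arrays. Its value in those 16 lay between 0.70 and 1.11. The call of Tie1 on 161184_f_at was lost in 5 of 22, among them without subcutaneous array 2 or 3 or intraabdominal array 1 or 3. It was also lost with the 25th percentile of all values added before the logarithm, at 0.68 (adjusted p = 0.126). With 1 added the difference was 2.52, so its size depends on the constant. The Tie1 signals lay below the filter level of 173 on every array of both groups. Thbd on 104601_at was lower in subcutaneous stromo-vascular cells, at -1.64 (SE 0.17, limma adjusted p = 1.51e-05). For Flt1 and Eng every subcutaneous array was below every intraabdominal one, yet they were not called: 98452_at of Flt1 read -0.65 (limma adjusted p = 0.0689), 98453_at of Flt1 -1.10 (limma adjusted p = 0.164) and Eng -0.63 (limma adjusted p = 0.141). Leaving out subcutaneous array 3 made 98452_at a call (-0.86, adjusted p = 0.0266), and leaving out intraabdominal array 1 did so for Eng (-0.91, adjusted p = 0.0326). The endothelial genes therefore did not shift together between the depots of the stromo-vascular fraction.

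**Figure D3:**
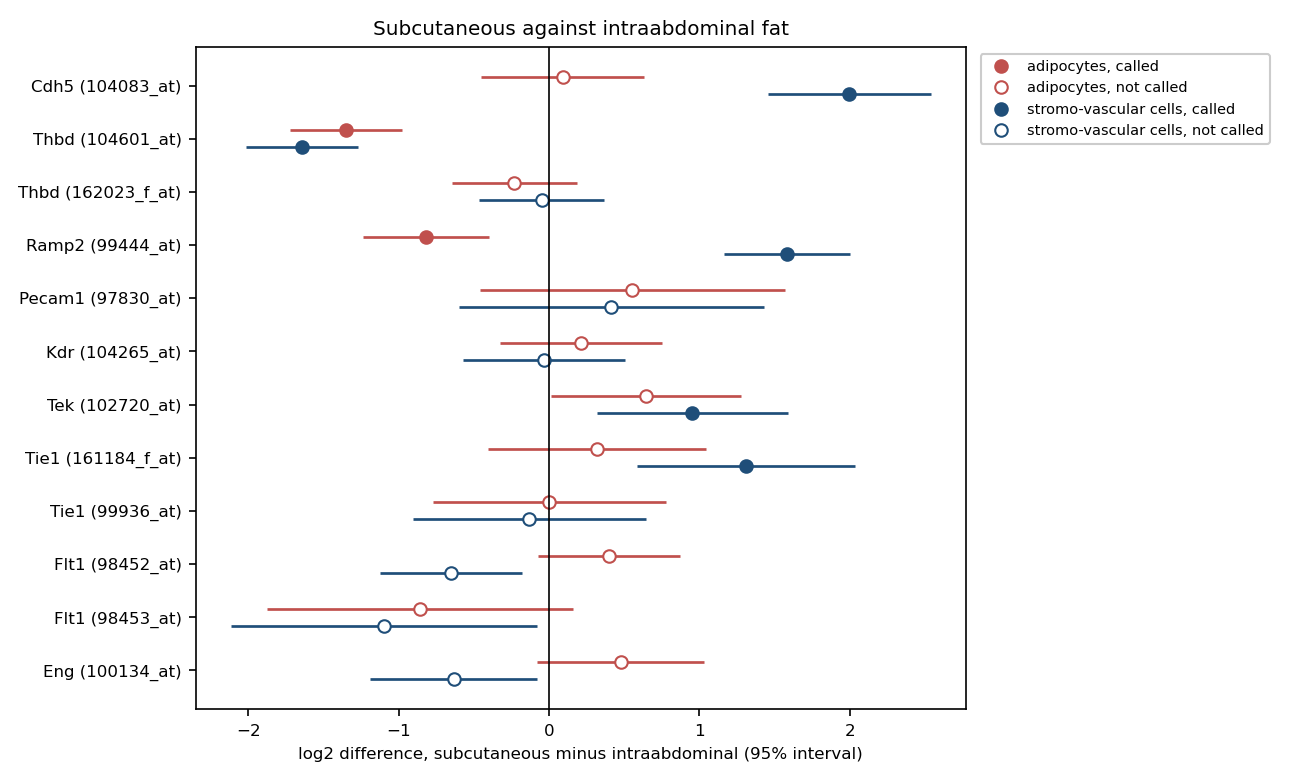
Log2 difference of subcutaneous minus intraabdominal fat for the 12 probe sets in adipocytes and in stromo-vascular cells, with 95% intervals from the fit; filled points were called. The pairs of points of Ramp2 lie on opposite sides of 0, at -0.82 and 1.58, and Thbd on 104601_at is left of 0 in both fractions.

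The interaction was computed as the adipocyte value of the depot difference less the stromo-vascular one, and tests whether the depots differ in the same way in both fractions. It was called for 2 of the 12 probe sets, both negative, beside 8.43% of all probe sets called, 3.90% as positive and 4.53% as negative. Ramp2 had an interaction of -2.40 (SE 0.28, limma adjusted p = 6.81e-05), and Cdh5 of -1.90 (SE 0.36, limma adjusted p = 0.0035). Both kept sign and call in the 22 alternatives run for them. Flt1 on 98452_at had an interaction of 1.05 (limma adjusted p = 0.0525), which became a call in 6 of 22 alternatives, and Eng of 1.11 (limma adjusted p = 0.0843), which became one in 3 of 22. Single arrays were enough for this: stromo-vascular array 3 of subcutaneous fat for Flt1 (adjusted p = 0.0213 without it), and subcutaneous adipocyte array 3 (0.00998) or intraabdominal stromo-vascular array 1 (0.023) for Eng. Centring on the median moved the share of positive among all called probe sets to 32.9%, in place of 46.2%.

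The partners of these receptors were taken from lists. Of 7 tested genes of the VEGF axis, 2 were higher and 3 lower in adipocytes of each depot. The co-receptor gene Nrp1, which binds VEGF-A beside Kdr, had log2 differences of 3.44 and 1.89 in subcutaneous and intraabdominal fat. Of the ligand genes, Vegfb, a ligand of Flt1, was higher in adipocytes, at 1.46 and 1.83, and Pgf, another, did not pass the test at 0.20 and -0.75. Vegfd averaged 1552 ± 66.2 and 1595 ± 80.0 in subcutaneous and intraabdominal adipocytes, against 32856 ± 927 and 48441 ± 3676 in stromo-vascular cells of the same depots (SD, n = 3 each). Vegfc, a ligand of the lymphatic receptor, had log2 differences of -4.25 and -5.40, and lay below the filter level on every adipocyte array, so that it passed only through its stromo-vascular signals. Vegfa, the main ligand of Kdr and Flt1, averaged 1229 ± 24.5 and 910.4 ± 26.7 in adipocytes against 2569 ± 220.0 and 3229 ± 174 in stromo-vascular cells, with log2 differences of -1.04 (limma adjusted p = 1.16e-05) and -1.78 (limma adjusted p = 3.91e-08). In adipocytes of both depots the signal of Kdr, Flt1, Nrp1 and Vegfb was thus higher, and that of Vegfa and Vegfd lower. Vegfc was lower too, a direction that the filter had fixed, and Pgf was not called.

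Of 5 tested genes of the angiopoietin axis, adipocytes had 4 higher and 1 lower in subcutaneous fat, and 2 higher and 1 lower in intraabdominal fat. Ptprb encodes the vascular phosphatase that acts on the Tek receptor and had log2 differences of 4.91 and 5.04, with stromo-vascular signals of 27.1 ± 7.95 and 19.2 ± 6.26. Angptl4, which encodes an inhibitor of lipoprotein lipase that fat cells make themselves, had 2.94 in both depots. Ptprb lay below the filter level on every stromo-vascular array, so its direction was fixed by the filter. Angpt2, a ligand of Tek, went the other way at -1.28 and -0.87.

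Of the adrenomedullin axis, Adm and Ramp1 were tested, while Calcrl, whose protein Ramp2 needs as a partner, did not pass the filter on low signals, averaging 30.7 to 47.8 in the 4 groups. Adm, which encodes the ligand, averaged 5764 ± 946 and 9613 ± 828 in subcutaneous and intraabdominal adipocytes, against 58625 ± 3708 and 24124 ± 3098 in stromo-vascular cells (SD, n = 3 each). Its depot difference was -0.74 in adipocytes (limma adjusted p = 0.00415) and 1.29 in stromo-vascular cells (limma adjusted p = 1.68e-05), with an interaction of -2.03 (limma adjusted p = 1.26e-05), beside the values of the same signs for Ramp2. Ramp1, a relative of Ramp2 that serves another peptide receptor, had a depot difference of -1.60 in stromo-vascular cells and so the opposite sign there.

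Of 9 tested genes of the thrombomodulin axis, adipocytes had 0 higher and 7 lower in subcutaneous fat, and 0 higher and 6 lower in intraabdominal fat, in the direction of Thbd on 104601_at. F3, which encodes tissue factor and starts clotting, had log2 differences of -4.13 and -3.61, and F2r, a thrombin receptor gene, of -3.34 and -4.53. Procr encodes the endothelial protein C receptor that works with thrombomodulin, and was lower in adipocytes too, at -2.36 and -1.43. Its depot difference in stromo-vascular cells was 1.26 (limma adjusted p = 0.000168), opposite in sign to that of Thbd on 104601_at.

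Of 15 tested genes of the endoglin and TGF beta axis, adipocytes had 2 higher and 9 lower in subcutaneous fat, and 0 higher and 10 lower in intraabdominal fat. Id2, a target of BMP signals, had -1.80 and -1.75. Of 9 tested partners of Cdh5 and Pecam1 at junctions, adipocytes had 3 higher and 5 lower in subcutaneous fat, and 2 higher and 6 lower in intraabdominal fat. Jup, which encodes the plakoglobin that binds cadherins, had 1.85 and 1.36, while Ctnnb1, which encodes the beta-catenin found in all cadherin junctions, had -1.47 and -1.10.

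A list of 37 other genes known from endothelium, also chosen with earlier results of these data known, had 23 on the array, of which 19 were tested. Of these, 13 rose and 2 fell in adipocytes relative to stromo-vascular cells of subcutaneous fat, and 12 rose and 2 fell in intraabdominal fat. A group of 6 of the 19 (Vwf, Nos3, Selp, Aqp1, Klf2 and Ptprb) lay below the filter level of 173 on every stromo-vascular array and passed only through their adipocyte signals, so their higher calls were built in. Among the other 13 genes, 7 were higher, 2 lower and 4 not called in subcutaneous fat, and 6 higher, 2 lower and 5 not called in intraabdominal fat, with medians of 1.06 and 0.83. Aqp1, a water channel gene of capillaries and red cells, averaged 4954 ± 1692 and 5420.1 ± 668 in subcutaneous and intraabdominal adipocytes, against 37.0 ± 16 and 31.1 ± 16.7 in stromo-vascular cells. Cldn5, a tight junction gene of endothelium, had log2 differences of 4.29 and 6.06 and, like Cdh5, had more signal in stromo-vascular cells of the subcutaneous depot (1.34, limma adjusted p = 0.00334) with a negative interaction (-1.77, limma adjusted p = 0.00813). The genes that went the other way were Efnb2, an arterial ligand gene, at -0.81 and -2.48, and Edn1, which encodes endothelin, at -1.66 and -3.28. Between depots, 1 of the 19 was called in adipocytes (Mcam, an adhesion gene of endothelium and pericytes, at -0.71), and 6 were called in stromo-vascular cells, 3 in each direction. The smallest p there were of Mcam at -1.23 (limma adjusted p = 5.3e-05) and Efnb2 at -1.83 (limma adjusted p = 8.19e-05), opposite in sign to Cldn5. The interaction was called positive for 2 genes, Efnb2 at 1.67 and Edn1 at 1.62, and negative for Cldn5 alone.

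**Figure D4:**
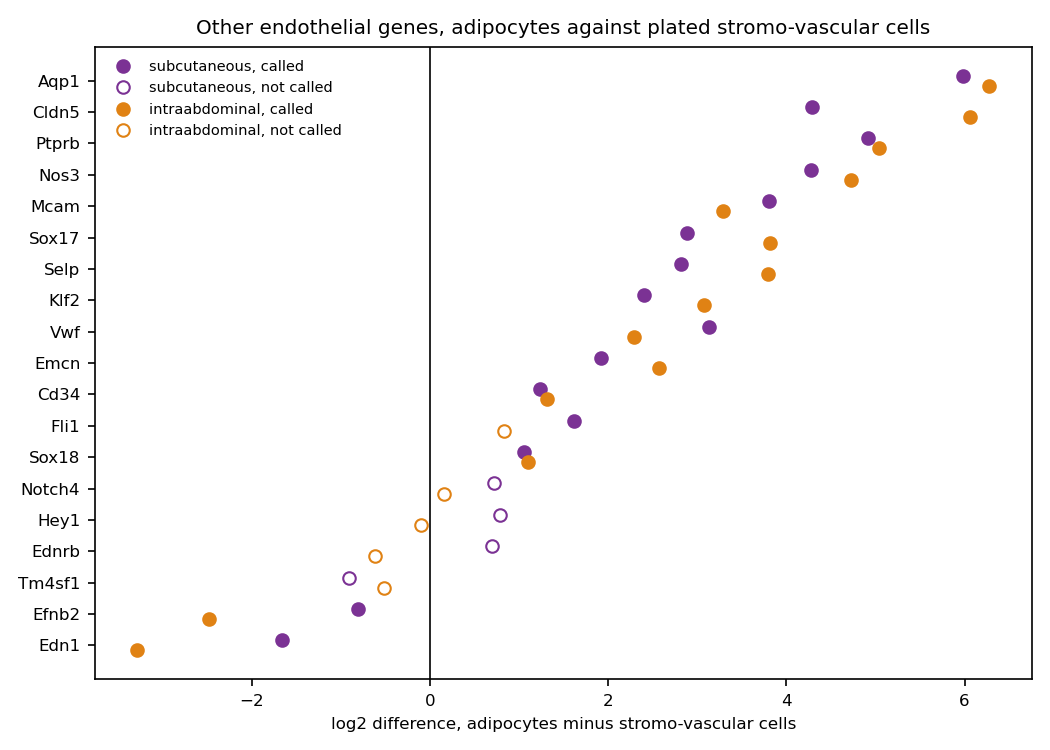
Log2 difference of adipocytes minus plated stromo-vascular cells for the 19 tested genes of the other endothelial list, in subcutaneous and intraabdominal fat; filled points were called. Aqp1, Cldn5 and Ptprb lie farthest to the right, and Efnb2 and Edn1 are left of 0 in both depots.

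Markers of other cells were summed on each array beside the endothelial genes, and no listed gene had a signal of 0 on any array. The 9 endothelial genes summed to 19193 to 33811 in subcutaneous and 24131 to 26669 in intraabdominal adipocytes. In stromo-vascular cells they summed to 11873 to 13267 in subcutaneous and 16475 to 23255 in intraabdominal fat. Eng weighs heavily in all of these sums, and so does Thbd in intraabdominal stromo-vascular cells. There Eng read 7805 to 15649 and Thbd on 104601_at 5552 to 6399, beside 39.5 to 102 for Cdh5. Markers of lymphatic endothelium had 0 higher and 1 lower of 3 tested in each depot, and the lower one, Pdpn, is also made by fibroblasts. Erythroid markers summed to 18208 to 44870 in subcutaneous and 20661 to 22065 in intraabdominal adipocytes, against 949 to 1225 and 561 to 1084 in stromo-vascular cells of the same depots, which had gone through red cell lysis, while the labels name no such step for adipocytes. The 2 tested platelet markers, Gp9 and Gp5, were not called in either depot (log2 differences of 0.51 and -0.17 in subcutaneous and -0.15 and -0.56 in intraabdominal fat). The part of blood cells in the endothelial values was not tested.

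Adipocyte markers were higher in adipocytes for 12 of 12 genes in each depot, of which Retn and Cidec passed the filter only through adipocytes, and summed to 439696 to 513257 in subcutaneous and 525493 to 611902 in intraabdominal adipocytes, against 24350 to 29798 and 16588 to 19876 in stromo-vascular cells. Fibroblast and preadipocyte markers were lower for 9 of 12 in subcutaneous and 10 of 12 in intraabdominal adipocytes. Macrophage markers were mixed, with 5 higher and 5 lower of 12 in subcutaneous and 4 higher and 6 lower of 12 in intraabdominal adipocytes, and lymphocyte markers were higher for 3 of 3 and 1 of 3.

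The stromo-vascular cells of the 2 depots also differed in other cell types, beside the depot differences of Cdh5, Ramp2 and Thbd. Mesothelial markers, of cells that cover abdominal fat, summed to 2264 to 2615 in subcutaneous and 5804 to 6475 in intraabdominal stromo-vascular cells, with 0 higher and 4 lower of 6 tested. Smooth muscle and pericyte markers summed to 45177 to 46482 in subcutaneous and 168150 to 196826 in intraabdominal stromo-vascular cells, with 0 higher and 7 lower of 11. Macrophage markers summed to 26646 to 28232 in subcutaneous and 43894 to 49677 in intraabdominal stromo-vascular cells, with 1 higher and 7 lower of 12, among them the complement genes C1qa at -2.80 and C1qb at -3.01. Fibroblast and preadipocyte markers summed to 452574 to 492253 in subcutaneous and 336770 to 388421 in intraabdominal stromo-vascular cells, with 4 higher and 1 lower of 12, among them the matrix genes Dpt at 3.19 and Lum at -1.25. Thbd is made by mesothelial and smooth muscle cells as well as by endothelium. The part of these cell types in the depot differences was not tested.

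**Figure D5:**
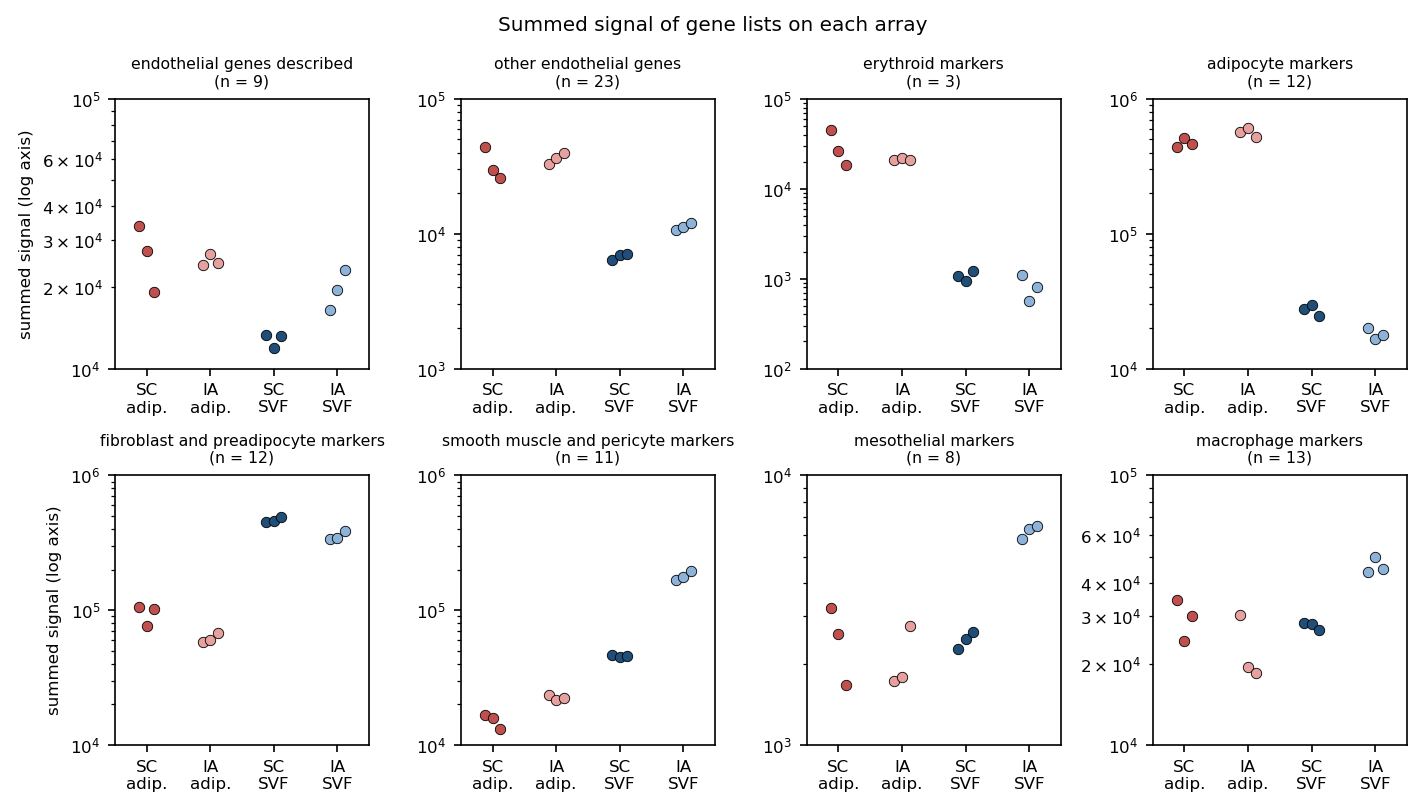
Summed signal on each array, on log axes, of the 9 endothelial genes and of marker lists, in adipocytes (adip.) and stromo-vascular cells (SVF) of subcutaneous (SC) and intraabdominal (IA) fat; n is the number of genes summed, with 1 probe set each. Erythroid sums are 18208 or more on every adipocyte array and 1225 or less on every stromo-vascular array, and mesothelial and smooth muscle sums are highest in intraabdominal stromo-vascular cells. Eng and Thbd weigh heavily in the endothelial sums of intraabdominal stromo-vascular cells.

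Likeness of profiles was measured by Pearson's r of log2 values over the 12 arrays, as a description, since the arrays form 4 groups and share the contrast of the fractions. The members were not alike: r with the mean of all 9 lay between 0.81 and 0.98 for Cdh5, Ramp2, Pecam1, Kdr, Tek, Tie1 and Flt1, while it was 0.07 for Eng and -0.65 for Thbd. The 10 genes outside the set most like this mean were Mrps31 (r = 0.982), Hba-a1 (0.982), Uqcrc2 (0.981), Rasgrp2 (0.980), Mlycd (0.978), Acly (0.977), Cd99l2 (0.976), Rabepk (0.976), Spop (0.975) and Bckdk (0.974). These were the highest r among 6427 genes searched. Hba-a1 among them is on the erythroid list and Cd99l2 on the list of junction partners, and the others are on none of the lists used here.

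By single member, the nearest gene to Tie1 was Emcn (r = 0.991), which encodes the capillary and venous sialomucin endomucin, and the nearest to Cdh5 was Eln (0.994), which encodes elastin. Kdr was nearest to Bckdk (0.983), Flt1 to Acaa2 (0.978), Tek to Ogfod2 (0.974) and Ramp2 to Btg1 (0.972). Pecam1 was nearest to Rapsn (0.927) and Eng to Kctd9 (0.873), the lowest of the 9, and Thbd on 104601_at was nearest to Tubb5 (0.983). Of these nearest genes, Emcn alone belongs to the endothelial lists used here.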

How the data were processed

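RNA of 12 samples in 4 groups was measured on Affymetrix arrays, from 15 µg of RNA each. Each deposited value is the intensity of a probe set on a linear scale. The authors made it with MAS5 per the submitters' processing notes, in a version not given in the sources used here. Arrays had 2% trimmed means that differed by no more than a ratio of 1.00017 and were used without rescaling. Genes were named from the platform annotation, and a probe set with several symbols named none. The 66 control probe sets were left out, then the lowest 30% by mean log2 signal. A constant of 40.1, the 10th percentile of all values, was added before log2 was taken of the deposited signals.

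Group means over the 12 arrays were fitted with limma 3.58.1 in R 4.3.3 (lmFit, eBayes with an intensity trend), with Benjamini-Hochberg adjustment over 8695 probe sets. On simulated data the same steps recovered 52% of 2-fold changes in each comparison of 2 groups and 79% to 90% of 4-fold changes, and 16% and 67% in the interaction. The simulation changed 200 of 8695 probe sets per comparison, far fewer than the 52.8% and 51.3% called between the fractions. Its rates therefore do not describe recovery in the fraction comparisons. Replicate numbers in the labels were not used to pair the arrays in the main fit. Of 18 pairs with the same number, 1 had a correlation of deviations above 0.1. Such correlations cannot settle whether arrays with the same number share mice. The members and lists were chosen with earlier results of these data known. From each list, up to 3 genes with the smallest p in a comparison were to be named, and for likeness the 10 highest r with the mean of the members and the highest r for each. Vegfb, Pgf, Efnb2, Edn1, Vwf, Nos3, Selp, Klf2, Retn and Cidec fell outside this rule in places and were named after their values were seen, to complete counts. Vegfa, Nrp1, Angpt2, Procr, Jup and Cldn5 also fell outside it in at least 1 fraction comparison for which they are given. Not every gene that the rule picks is named here. Genes below the filter level on every array of 1 fraction were counted separately, a split chosen after seeing the data. A gene below that level only on average in 1 fraction, as Cdh5 was, stayed among the remaining genes. Centring, quantile normalization, other constants and filters, array weights, a replicate block, the actin ratio and leaving out each array were the alternatives.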

Additional observations from a re-analysis of the deposited data

Results flagged for a closer look

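The depot difference differed between the fractions for 2 of the 9 genes by a test of that difference. For Ramp2 the interaction was -2.40 on the log2 scale (limma adjusted p = 6.81e-05): subcutaneous minus intraabdominal was -0.82 in adipocytes and 1.58 in stromo-vascular cells. For Cdh5 it was -1.90 (limma adjusted p = 0.0035), with 0.09 in adipocytes and 2.0 in stromo-vascular cells. The groups have 3 arrays each, so no single array was tested as standing apart.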

How the results depend on the processing

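Of 1343 values under 23 alternatives, 1226 kept direction and call, 44 lost a call, 34 gained one and 39 turned direction. Outside the actin covariate, values of called probe sets kept direction and call in 595 of 624 cases, lost the call in 29 and turned in 0. With the lowest 50% of signals left out, 5 of the 12 probe sets were not tested, and counts of higher adipocyte calls were 4 in subcutaneous and 5 in intraabdominal fat, and 2 for the stromo-vascular depot comparison. With the actin 3' to 5' ratio as a covariate, calls in adipocytes against stromo-vascular cells were 0 higher and 0 lower in subcutaneous and 4 higher in intraabdominal fat, and lower calls between depots in adipocytes were 1. Lower calls in intraabdominal adipocytes were 2 in place of 1 with the 25th percentile added, the lowest 50% left out, quantile normalization, array weights, or only the arrays compared, where Eng joined Thbd. In the stromo-vascular depot comparison, higher calls were 2 with the 25th percentile added, and lower calls were 2 with median centring, quantile normalization or only the arrays compared, and 4 with array weights. Positive interactions were 1 in place of 0 with the 25th percentile added, the lowest 50% left out, quantile normalization or no trend, and 2 with array weights. Over the whole array, depot calls in adipocytes were 299 with only the arrays compared and 97 with the actin ratio, beside 707, interaction calls 403 with the actin ratio beside 733, and stromo-vascular depot calls 1952 with array weights beside 1125. Depot calls in adipocytes were 375 without intraabdominal adipocyte array 1 and 367 without array 2. Leaving out 1 array gave ranges of 8 to 10 higher calls in each fraction comparison, 1 to 2 lower calls in intraabdominal adipocytes, 0 to 1 higher and 1 to 2 lower calls between depots in adipocytes, 2 to 4 higher and 1 to 2 lower in stromo-vascular cells, and 0 to 1 positive interactions. A replicate block changed 1 call: Tek between depots of stromo-vascular cells had an adjusted p of 0.0755, and 3 of 12 arrays correlated best with their own number.

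The values that turned direction were these. With the actin ratio, adipocytes minus stromo-vascular cells was -1.57 for Pecam1 and -1.03 for Eng in subcutaneous and -0.62 for Pecam1 in intraabdominal fat. Between depots in adipocytes the same covariate gave Cdh5 -0.45, Pecam1 -0.69, Kdr -0.12, Tie1 -0.49 and -0.42 and Eng -0.11, and in the interaction Pecam1 -0.95, Kdr -0.043 and Tie1 -0.24. Median centring gave Cdh5 -0.13, Kdr -0.0026 and Tie1 -0.21 in adipocytes, and Pecam1 -0.021 and Tie1 -0.028 in the interaction. Quantile normalization gave Tie1 -0.13 in adipocytes, and array weights gave Tie1 0.060 in stromo-vascular cells and -0.023 in the interaction. With 1 array left out, the ranges were -0.052 to 0.34 for Cdh5 and -0.13 to 0.13 for Tie1 on 99936_at between depots in adipocytes. In stromo-vascular cells they were -0.12 to 0.065 for Thbd on 162023_f_at, -0.15 to 0.14 for Kdr, -0.37 to 0.27 for Tie1 on 99936_at and -0.19 to 0.85 for Pecam1. In the interaction they were -0.30 to 0.74 for Pecam1, -0.27 to 0.37 for Tie1 on 99936_at and -0.18 to 0.85 for Flt1 on 98453_at. The cause of these turns was not tested. The number of arrays limits the precision, and without detection calls the background under dim signals is unknown.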
